A study of Mus musculus with 8 samples.

Results

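Collagen genes were examined in mouse dermal fibroblasts transfected with a synthetic miR-127-3p or with control oligonucleotides. Every gene whose symbol has the form Col, a number, a and a number was taken, which gave 44 genes among the 21368 gene symbols on the array. A gene was represented by its brightest probe over all arrays, and 24 of the 44 genes had that probe well above background on 4 or more arrays (of 8) and were tested. The cells were fibroblasts grown out of newborn C57BL/6 mouse skin after enzymatic digestion. One of the groups received miR-127-3p mimic oligonucleotides (samples 2, 4, 5 and 7) and the other control oligonucleotides (samples 1, 3, 6 and 8), 4 samples each. The strain, the culture and the transfection were shared by both groups, and no genetic change is named. A mimic is a synthetic RNA that stands in for the mature microRNA and is usually delivered far above natural levels. Nothing in the labels says whether the 4 samples of a group came from separate animals, cultures or only separate wells, so the p-values measure the spread between these samples. For samples 3 and 6 the treatment field names both kinds of oligonucleotide, and their group was taken from their titles and source names.

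Collagens are extracellular proteins in which a triple helix forms from alpha chains, each encoded by its own gene. Fibrillar collagens make the ropes that give skin its tensile strength. FACIT collagens, which have interrupted triple helices, sit on the surface of those fibrils, network collagens such as type IV form the sheet of the basement membrane, and type VI forms beaded filaments close to the cell. Transmembrane collagens stay anchored in the plasma membrane. Dermal fibroblasts are the main producers of the fibrillar, FACIT and beaded types in skin, and the series places miR-127-3p in the setting of senescence of myofibroblasts, the matrix-producing contractile form of the fibroblast.

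The agent that separates the groups is the microRNA itself, so its sequence is given first, with the seed (bases 2 to 8, the stretch that usually pairs with a target) in capitals. The mature sequence is from RefSeq, build GRCm38.p6, chr12:109592888-109592909, plus strand.
mmu-miR-127-3p: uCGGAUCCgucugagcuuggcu
The array holds probes for longer transcripts, and the level of the mature microRNA was not analysed here. Pairing of this seed with collagen messenger RNAs was not tested.

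All 8 arrays came from 1 slide and 1 scan, with samples 1 to 4 in row 1 of the slide and samples 5 to 8 in row 2. The number of probes flagged as well above background ranged from 20760 to 23472 per array, and neither that number nor the 75th percentile of the signal passed an exact permutation test between the groups (two-sided, p = 0.629 and 0.371; the smallest p that the 70 assignments allow is 0.0286). Correlations across genes were 0.985 to 0.994 between miR-127-3p arrays, 0.984 to 0.992 between control arrays and 0.960 to 0.981 between groups. Of 10 fibroblast markers, all were tested, 1 was higher and 1 lower, and their summed linear level (array 75th percentile = 1) was 1087 to 1180 with the mimic and 955 to 1080 in control arrays. Of the 7 listed cartilage markers, Acan, Matn3, Cnmd, Hapln1 and Comp were not well above background on any array. Sox9 was above background on 4 mimic and 4 control arrays, and Matn1 on 0 and 1. Of the 6 listed bone markers, Bglap, Ibsp and Dmp1 were above background on no array. Runx2 was on 4 mimic and 2 control arrays, Alpl on 2 and 1, and Sp7 on 1 and 0. Of 10 tested macrophage and leukocyte markers 9 were higher with the mimic, where 15.9% of all features were. Ptprc, also on the list, was above background on no array. In 9 of the 10 tested markers miR-127-3p 5 was the lowest mimic array. The summed level of all 11 listed markers was 65.4 to 76.2 with the mimic and 36.6 to 45.8 in control arrays. The marker Itgam alone gave 34.2 to 52.2 of that sum with the mimic and 24.6 to 34.2 in control arrays, and without it the other 10 markers summed to 17.0 to 31.6 with the mimic and 11.4 to 12.0 in control arrays. In such bulk RNA, more or fewer cells of a type and more or less RNA per cell cannot be told apart. The arrays of miR-127-3p 5 and control 3 lay at the edge of their own groups for several collagens described below, and results are given without them where that matters.

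All values below are log2 signals minus the array's 75th percentile, so a probe at 0 equals the 75th percentile of its array. Differences are log2 fold changes of the mimic over control from limma with their standard error (SE), and adjusted p-values come from limma with Benjamini-Hochberg adjustment over all 17092 features tested. Levels of different probes are not comparable with each other, because hybridisation differs between probes. Values are listed in the order of samples 2, 4, 5 and 7 for the mimic and 1, 3, 6 and 8 for controls.

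Collagen genes went in both directions. Of the 24 tested, 4 rose with the mimic (Col11a1, Col12a1, Col4a2 and Col4a1), 2 fell (Col3a1 and Col6a3) and 18 did not pass at an adjusted p of 0.05. That is 25.0% called, where 34.2% of all features were called (15.9% higher and 18.3% lower), so the share of collagens that changed was no larger than that of the array as a whole. The median log2 fold change was 0.08 over the 24 collagens and 0.02 over all features. In 4 collagens the arrays of the groups did not overlap (16.7%, against 34.2% of all features). The log2 fold changes spanned -1.07 for Col3a1 to 1.01 for Col11a1. With no filter on dim probes, which adjusts over 36708 features, Col3a1, Col4a1 and Col6a3 lost their calls (adjusted p = 0.0674, 0.115 and 0.0946).

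**Figure D1:**
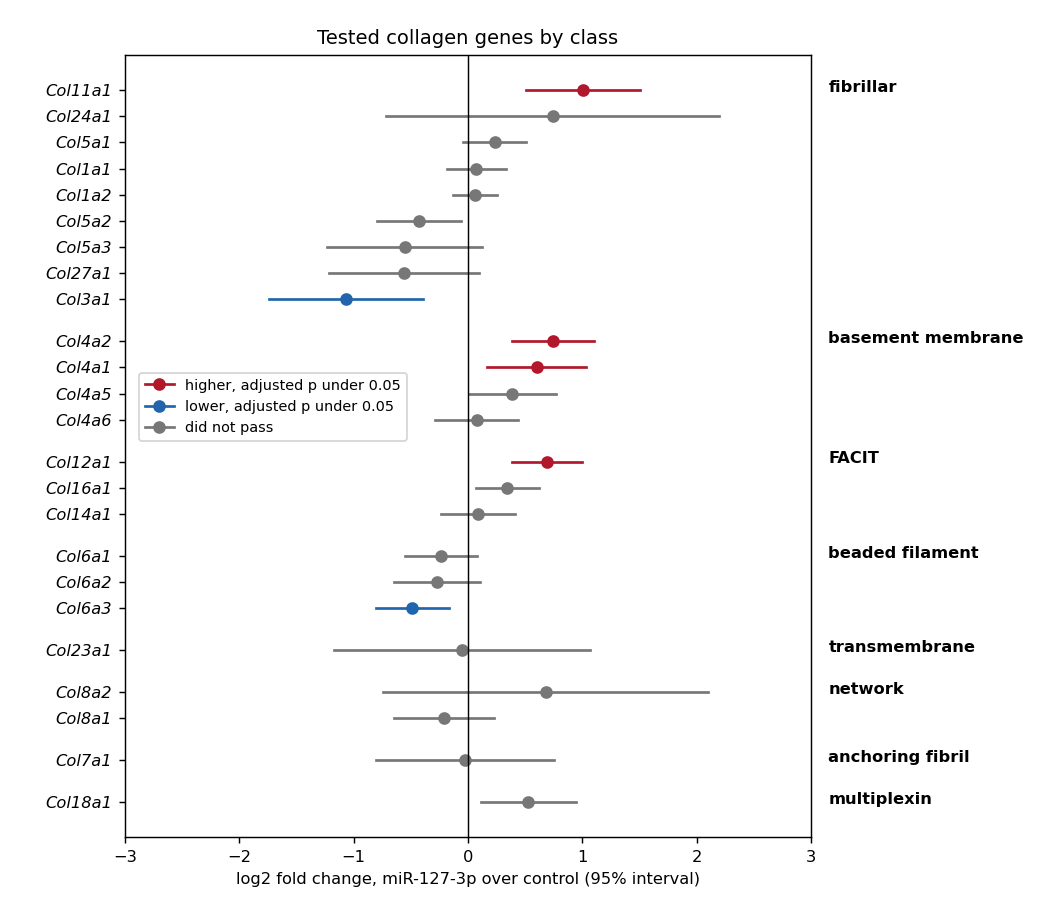
Log2 fold change of the 24 tested collagen genes, miR-127-3p over control, by class, with points for the fitted change and bars for its 95% interval. Red points rose and blue points fell at an adjusted p under 0.05 (limma); the 6 coloured genes are spread over 4 classes, and the wide bars of Col24a1, Col8a2 and Col23a1 belong to probes near background.

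Among the fibrillar collagens, 9 of 11 genes were tested, and 1 rose, 1 fell and 7 did not pass, with a median log2 fold change of 0.06. Type I collagen, the bulk fibre of the dermis, did not pass the test for either chain. Col1a1 read 7.13, 7.20, 7.46 and 7.42 with the mimic and 7.39, 7.24, 7.27 and 7.01 in controls. The partner chain gene Col1a2 read 9.29, 9.40, 9.41 and 9.46 with the mimic and 9.43, 9.30, 9.40 and 9.18 in controls. Both sets of arrays overlap, with differences of 0.07 (95% interval -0.18 to 0.33, adjusted p = 0.647) for Col1a1 and 0.06 (95% interval -0.13 to 0.25, adjusted p = 0.614) for Col1a2 by limma. The intervals include small changes of either sign, so equal levels are not shown.

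Type III collagen, which shares fibrils with type I and is prominent in newborn skin and early wounds, was lower with the mimic. Its gene Col3a1 read 5.80, 5.24, 5.19 and 5.12 with the mimic and 6.81, 5.51, 6.56 and 6.74 in controls. Control 3 lay below the other controls and within the range of the mimic arrays, so the groups overlapped through that array. The log2 fold change was -1.07 (SE 0.29, adjusted p = 0.0232, limma), a level 2.09-fold lower with the mimic (n = 4 each). Without control 3 it was -1.37, and without both control 3 and miR-127-3p 5 it was -1.31 (adjusted p = 0.00275). The call was lost without control 1, 6 or 8 or without miR-127-3p 4, 5 or 7 (adjusted p between 0.0505 and 0.0643), and within slide row 1 the difference was -0.64 (adjusted p = 0.428) against -1.49 (adjusted p = 0.0175) within row 2.

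Type V collagen, a minor component that starts fibrils and limits their width, gave different values for its 3 chains. Col5a1 read 6.59, 6.37, 6.74 and 6.35 with the mimic and 6.35, 6.42, 6.07 and 6.29 in controls (difference 0.23, adjusted p = 0.166). Col5a2 read 2.08, 2.12, 1.80 and 1.98 with the mimic and 2.75, 1.98, 2.48 and 2.50 in controls (difference -0.43, 95% interval -0.80 to -0.07, adjusted p = 0.0686). Control 3 again lay inside the mimic range for Col5a2, and without that array the difference was -0.58 (adjusted p = 0.00726, limma). Col5a2 is the neighbour of Col3a1 on chromosome 1, with no other protein-coding gene between them, and both had the same low control array. Col5a3 spread widely, from 3.79 to 5.17 with the mimic and 4.48 to 5.43 in control arrays (difference -0.55, 95% interval -1.23 to 0.13, adjusted p = 0.185).

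The fibrillar gene that rose was Col11a1, whose chain starts fibrils in cartilage and is low in normal dermis. It read -0.90, -1.33, -1.04 and -1.52 with the mimic and -1.91, -2.07, -2.81 and -2.02 in controls, with 4 mimic and 3 control arrays well above background. Every mimic array was above every control array, and the log2 fold change was 1.01 (SE 0.22, adjusted p = 0.00808, limma), or 2.01-fold. Correcting the background with normexp, which compresses dim signals, gave 0.38 (adjusted p = 0.0409). Within slide rows 1 and 2 it was 0.87 and 1.14 (adjusted p = 0.0581 and 0.107, with 2 arrays per group in each). Of the 7 listed cartilage markers 5 were above background on no array, as given above. Only Sox9, above background on all 8 arrays, was tested, with a difference of 0.26 that did not pass (adjusted p = 0.201, limma). The part of such cells in the Col11a1 result was not tested.

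The remaining fibrillar genes lay near background. Col24a1 spanned -2.88 to -0.65 with the mimic and -3.88 to -1.49 in control arrays (difference 0.74, SE 0.64, adjusted p = 0.405), with 2 arrays per group well above background. Col27a1, expressed mainly in developing cartilage, spanned -2.61 to -1.79 with the mimic and -2.45 to -1.28 in control arrays (difference -0.56, adjusted p = 0.166), with 2 mimic and 3 control arrays above background. It passed only in 1 alternative, without control 8 (-0.80, adjusted p = 0.0441). For Col24a1 the SD within each group (1.05 and 1.09) exceeded the difference. Col2a1 and Col11a2, both cartilage genes, were not tested: Col2a1 was above background on 1 mimic array and Col11a2 on none.

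**Figure D2:**
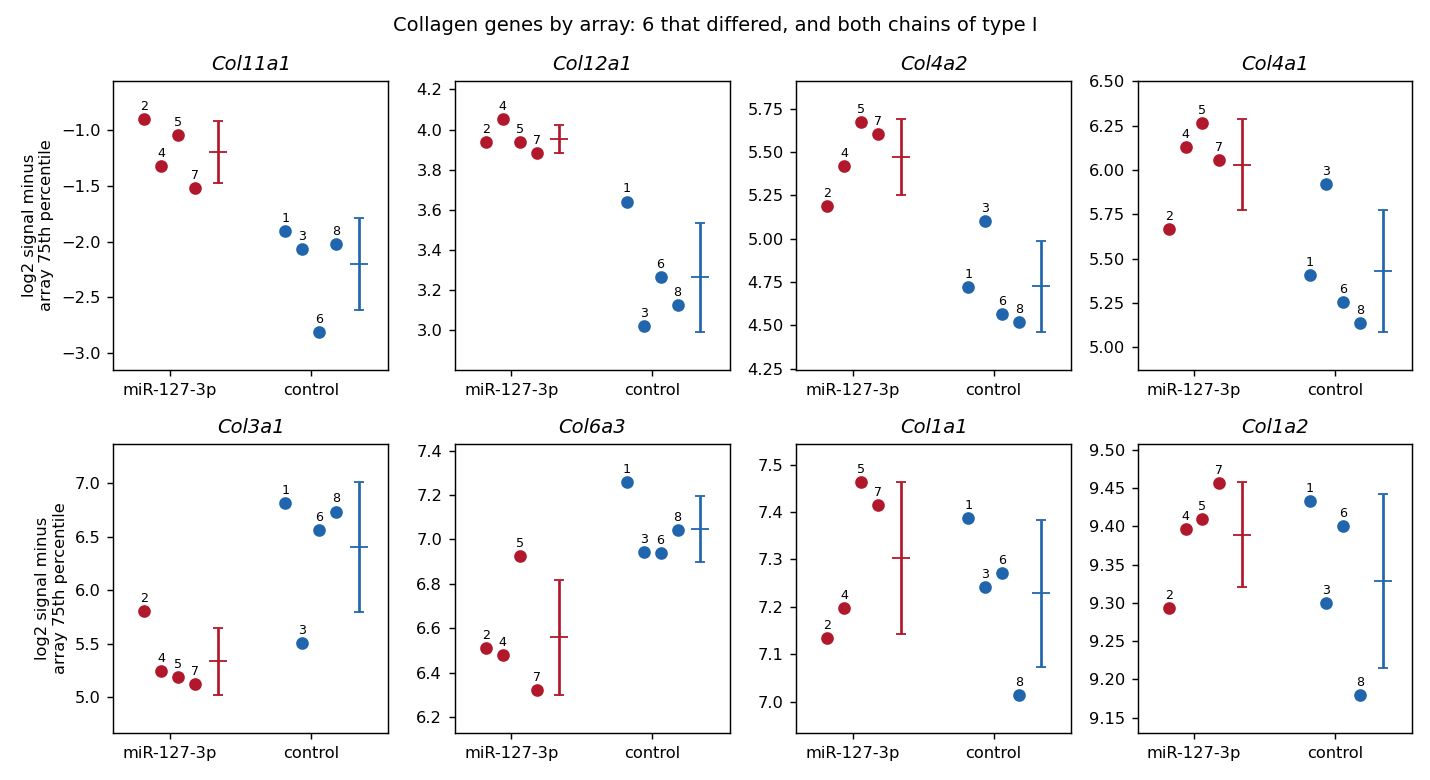
Log2 signal minus the array 75th percentile for the 6 collagen genes that passed the test and for both type I chains, by array, with mean and SD (n = 4) beside the points and sample numbers above them. Col11a1, Col12a1, Col4a2 and Col6a3 have no overlap between miR-127-3p and control arrays, Col3a1 and Col4a1 overlap through control 3, and the type I chains overlap throughout.

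Basement membrane collagen showed rises in its ubiquitous pair of chains. Of 6 type IV genes 4 were tested, and 2 rose, 0 fell and 2 did not pass. By the brightest probes all 4 differences were above 0, with a median log2 fold change of 0.49 (0.02 over all features). Col4a2 read 5.19, 5.42, 5.67 and 5.60 with the mimic and 4.72, 5.10, 4.56 and 4.52 in controls. Every mimic array exceeded every control array, by 0.75 on the log2 scale (SE 0.16, adjusted p = 0.00712, limma), or 1.68-fold. Col4a1 read 5.67, 6.13, 6.27 and 6.06 with the mimic and 5.41, 5.92, 5.25 and 5.14 in controls. Control 3 was the highest control for both genes and exceeded miR-127-3p 2 for Col4a1, where the difference was 0.60 (SE 0.19, adjusted p = 0.0395, limma), or 1.52-fold.

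The rise of Col4a2 kept its call in every alternative except within slide row 1, where it was 0.39 (adjusted p = 0.249), against 1.10 (adjusted p = 0.0204) within row 2. For Col4a1 the values within rows were 0.24 (adjusted p = 0.591) and 0.97 (adjusted p = 0.0318). Its call was lost with slide row or column as a block (adjusted p = 0.0545 and 0.0528) and without control 1, 6 or 8 or miR-127-3p 4, 5 or 7 (adjusted p between 0.0849 and 0.0987), while without control 3 and miR-127-3p 5 together it was 0.68 (adjusted p = 0.0135). Type IV chains are also made by endothelial cells and keratinocytes: 2 of 6 endothelial markers were tested and 1 rose, Vwf, by 1.97 (adjusted p = 0.000683), with Tek above background on no array and a summed endothelial level of 11.2 to 14.5 with the mimic and 9.60 to 12.8 in control arrays. The other tested marker, Kdr, differed by 0.13 (adjusted p = 0.523, limma). Kdr, with means of 3.53 with the mimic and 3.41 in controls, made up most of the summed level. The means of Vwf were -0.35 and -2.32, so the sum says little about Vwf or the dimmer markers. Cdh5, the junction cadherin of endothelium, was below the filter, with 3 mimic and 0 control arrays above background. It read -1.53, -1.34, -2.89 and -1.48 with the mimic and -4.67, -4.08, -4.61 and -3.39 in controls, without overlap. Pecam1 was also below the filter, on 2 mimic and 1 control arrays, with means of -2.18 and -2.12. Emcn was above background on 1 array of each group. For keratinocytes 5 of 8 markers were tested and 1 rose, with 4 differences above 0, 1 below and a median log2 fold change of 0.70. The summed keratinocyte level was 15.8 to 27.8 with the mimic and 11.2 to 21.3 in control arrays, and Krt1 was above background on no array. The part of these cells in the type IV result was not tested.

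Col4a1 and Col4a2 are direct neighbours on opposite strands of chromosome 8. They run in opposite directions from annotated starts so close that the first bases of the genes overlap. Their windows, 250 bases before to 50 after the annotated start, are shown because the pair moved together and because the windows overlap. Both come from RefSeq, build GRCm38.p6, at chr8:11312777-11313076 (minus strand) for Col4a1 and chr8:11312555-11312854 (plus strand) for Col4a2. Capitals mark the 78 bases that both windows hold, on opposite strands. This shared stretch holds the 50 bases after each start and the bases just before it. Each of its bases therefore lies within the annotated span of at least 1 of the genes.
Col4a1: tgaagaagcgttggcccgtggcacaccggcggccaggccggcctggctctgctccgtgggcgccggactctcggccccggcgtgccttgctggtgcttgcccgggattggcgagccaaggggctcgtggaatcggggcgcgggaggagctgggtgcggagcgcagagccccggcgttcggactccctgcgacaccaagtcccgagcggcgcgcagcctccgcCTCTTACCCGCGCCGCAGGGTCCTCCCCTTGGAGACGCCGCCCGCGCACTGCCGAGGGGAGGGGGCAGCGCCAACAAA
Col4a2: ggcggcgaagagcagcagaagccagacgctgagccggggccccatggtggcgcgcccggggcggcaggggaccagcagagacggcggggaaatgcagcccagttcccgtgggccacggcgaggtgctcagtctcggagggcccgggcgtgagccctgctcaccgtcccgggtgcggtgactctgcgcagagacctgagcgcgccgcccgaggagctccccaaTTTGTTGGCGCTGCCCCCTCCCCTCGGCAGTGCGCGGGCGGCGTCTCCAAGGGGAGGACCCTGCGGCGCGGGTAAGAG
Searched on both strands, the motif CCCTCCCC occurred 1 time in each window, inside the shared stretch, and 10.8% of all 32851 windows of this length hold it. Of the 38 windows of 35 collagen genes, 28.9% did. The motif CCAAT occurred 1 time in each window, outside the shared stretch in Col4a1 and across its edge in Col4a2 (37.4% of all windows and 34.2% of the collagen windows). GGGCGG occurred 1 time in the Col4a1 and 3 times in the Col4a2 window, 1 of them shared (35.7% of all windows and 60.5% of the collagen windows). No match of one motif overlapped that of another. These matches describe the letters in the windows and were not measured as binding sites.

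The other type IV chains gave smaller differences. Col4a5, a chain of epithelial basement membranes including that of skin, read 1.81, 2.04, 2.54 and 2.00 with the mimic and 1.88, 1.88, 1.51 and 1.57 in controls. Its difference of 0.39 (95% interval 0.01 to 0.77) did not pass (adjusted p = 0.106, limma), and miR-127-3p 5 was its highest array. Col4a6, its neighbour on the X chromosome, spanned -1.93 to -1.17 with the mimic and -1.84 to -1.53 in control arrays (difference 0.08, adjusted p = 0.740), and the sign of that difference turned in 4 of 21 alternatives. A second probe of Col4a6 gave -0.17 (adjusted p = 0.645, limma). Col4a3, of kidney and lung basement membranes, was on no array above background, and Col4a4 on 1 mimic array.

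Of 9 FACIT genes 3 were tested, and 1 rose, 0 fell and 2 did not pass, with a median log2 fold change of 0.34. Col12a1, whose chain binds the surface of type I fibrils and is found in tissue under tension, read 3.94, 4.05, 3.94 and 3.88 with the mimic and 3.64, 3.02, 3.27 and 3.12 in controls. The mimic arrays spanned a far narrower range than the controls and lay above all of them. The log2 fold change was 0.69 (SE 0.13, adjusted p = 0.00486, limma), or 1.61-fold, and it was 0.66 (adjusted p = 0.149) within slide row 1 and 0.72 (adjusted p = 0.0445) within row 2. It ranged from 0.61 to 0.81 over 21 alternatives.

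Col16a1, a FACIT gene of dermal fibrils near the basement membrane, read 6.42, 6.39, 6.17 and 6.46 with the mimic and 6.25, 5.85, 6.14 and 5.83 in controls. Its difference of 0.34 (95% interval 0.07 to 0.62) missed the threshold (adjusted p = 0.0570, limma), its 3 probes gave 0.24, 0.28 and 0.34, and it passed in 5 of 21 alternatives, among them without control 1 (adjusted p = 0.0332) and without miR-127-3p 5 (adjusted p = 0.0407). The chain gene of type XIV collagen, which lies on dermal fibrils and regulates their width, was measured by 2 probes that disagreed in sign. For Col14a1 the brightest probe spanned -0.20 to 0.24 with the mimic and -0.29 to 0.23 in control arrays (difference 0.09, adjusted p = 0.671), and the second probe gave -0.56 (adjusted p = 0.214). The 3 genes of type IX, a cartilage FACIT, and Col19a1, Col20a1 and Col22a1 were below the filter.

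The tested beaded filament genes all had lower means with the mimic, and 1 of 3 passed. Of the 6 type VI genes 3 were tested, with 0 higher, 1 lower and a median log2 fold change of -0.27. Col6a3, the large chain that can carry the cleaved peptide endotrophin, read 6.51, 6.48, 6.93 and 6.32 with the mimic and 7.26, 6.94, 6.94 and 7.04 in controls. Its groups did not overlap, although miR-127-3p 5 came close to the lowest controls. The log2 fold change was -0.49 (SE 0.14, adjusted p = 0.0276, limma), a level 1.40-fold lower. The call was lost without control 1 or 8 or miR-127-3p 2, 4 or 7 (adjusted p between 0.0590 and 0.0737), and within slide rows 1 and 2 the difference was -0.61 (adjusted p = 0.0869) and -0.37 (adjusted p = 0.352).

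The shorter chains Col6a1 and Col6a2, neighbours on chromosome 10, shared a low control array. Col6a1 read 7.16, 7.19, 7.17 and 7.13 with the mimic and 7.59, 6.96, 7.54 and 7.49 in controls (difference -0.23, 95% interval -0.55 to 0.08, adjusted p = 0.226). Col6a2 read 4.62, 4.92, 4.89 and 5.00 with the mimic and 5.32, 4.65, 5.32 and 5.24 in controls (difference -0.27, 95% interval -0.65 to 0.10, adjusted p = 0.235). In both genes 3 of 4 controls lay above every mimic array and control 3 lay low. Without control 3 the differences were -0.38 (adjusted p = 0.00752, limma) for Col6a1 and -0.43 (adjusted p = 0.0183, limma) for Col6a2. Without control 3 the collagens that passed were 4 higher and 5 lower (Col3a1, Col5a2, Col6a1, Col6a2 and Col6a3), against 4 and 2 with all arrays. Over all features, 2899 were higher and 2890 lower without control 3, against 2718 and 3134 with all arrays. The other genes of the class, Col6a4, Col6a5 and Col6a6, form a run on chromosome 9, and of these only Col6a6 was above background, on 1 mimic array.

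**Figure D3:**
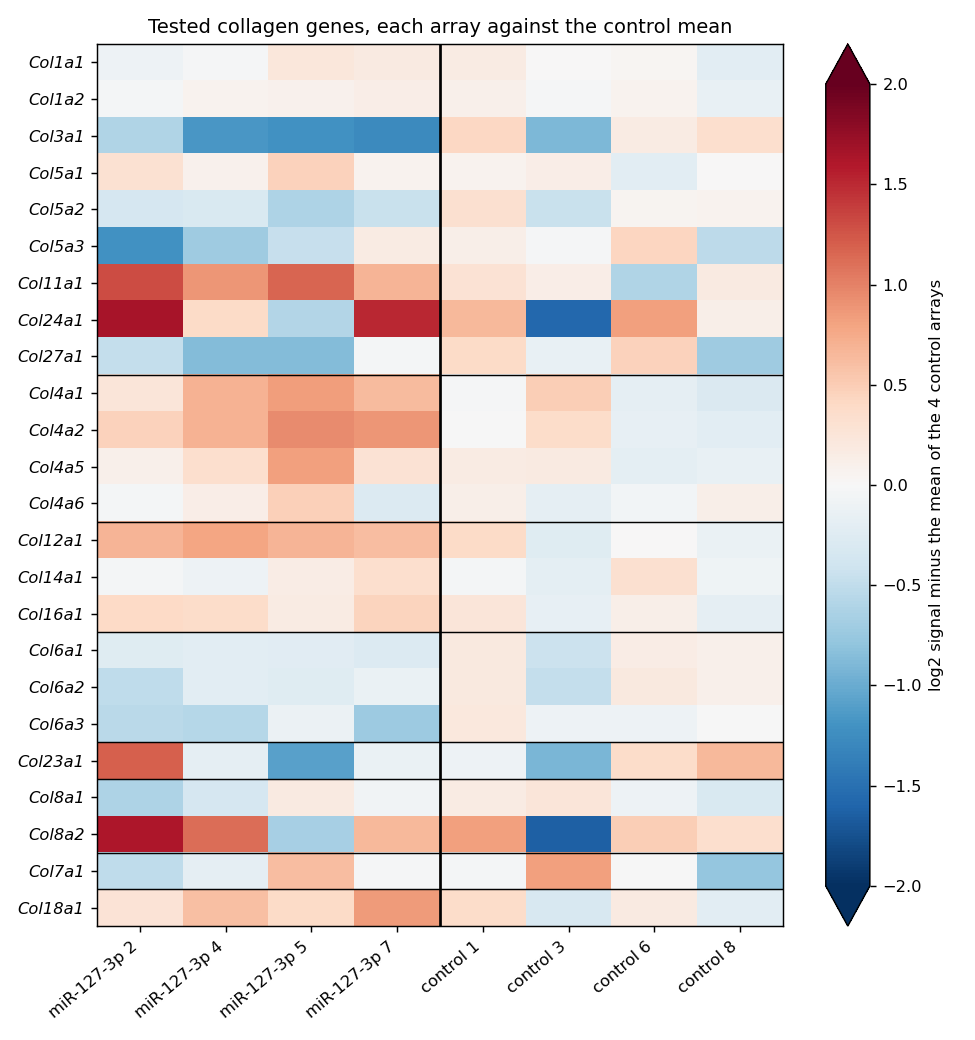
Each tested collagen gene (rows, grouped by class) on each array (columns, 4 miR-127-3p then 4 control), coloured by log2 signal minus the mean of the 4 control arrays. The control 3 column is blue for Col3a1, Col5a2, Col6a1 and Col6a2, which are among the 11 genes in which that array read lowest of its group, and pale red for Col4a1 and Col4a2, which are among the 6 in which it read highest.

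Of the 4 transmembrane genes 1 was tested and did not pass. Col23a1, a shed membrane collagen, spanned -3.30 to -1.01 with the mimic and -3.12 to -1.56 in control arrays (difference -0.05, 95% interval -1.18 to 1.07, adjusted p = 0.945), with 1 mimic and 3 control arrays above background. That wide interval includes changes of either sign within its limits, so equal levels are not shown. Col25a1, a collagen found in amyloid plaques, was above background on 0 mimic and 3 control arrays, so it was below the filter. Its brightest probe read -3.54, -2.99, -2.65 and -3.17 with the mimic and -1.97, -2.29, -1.93 and -2.20 in controls, without overlap, and was at least 1.30-fold lower with the mimic. Such a bound sets the mean of the bright group against, on each dim array, the detection limit or the dim probe's own signal, whichever is higher, the limit being the lowest signal of any probe that passed the background flag. In the fit without the filter, over 36708 features, the brightest probe of Col25a1 differed by -0.99 (adjusted p = 0.0161, limma). The gene had 4 probes, and the others did not show such a difference. Another had means of -3.31 with the mimic and -3.06 in controls, with 0 mimic and 1 control arrays above background. The remaining probes, above background on no array, had means of -4.61 and -4.39 with the mimic and -4.47 and -4.69 in controls.

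Col17a1, the hemidesmosome collagen of keratinocytes, was above background on 1 mimic array and no control array. It read -2.39, -2.67, -2.08 and -2.45 with the mimic and -3.68, -2.55, -4.64 and -4.29 in controls, which overlap through control 3. Without the filter its adjusted p was 0.0767 (limma). The fourth gene of the class, Col13a1, was on no array above background.

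The network, anchoring fibril and multiplexin genes did not pass. Col8a1, a short-chain network collagen of vessels and the cornea, spanned -0.33 to 0.47 with the mimic and -0.02 to 0.54 in control arrays (difference -0.21, adjusted p = 0.436). Its partner chain Col8a2 read -0.63, -1.12, -2.91 and -1.59 with the mimic and -1.43, -3.88, -1.76 and -1.91 in controls (difference 0.68, SE 0.62, adjusted p = 0.433), with 3 arrays of each group above background. Both values overlap between groups, and those of Col8a2 were lowest in miR-127-3p 5 and control 3. Col10a1, of growth plate cartilage, was on no array above background.

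Col7a1, whose product forms the anchoring fibrils under the epidermal basement membrane, read 5.35, 5.67, 6.47 and 5.83 with the mimic and 5.82, 6.67, 5.85 and 5.09 in controls. The difference was -0.03 (95% interval -0.81 to 0.75, adjusted p = 0.959, limma), and the arrays of each group spread far more widely than the group means differ. Within slide row 2 the difference was 0.68 and without miR-127-3p 2, without miR-127-3p 4 or without control 3 it was 0.13, 0.02 and 0.24. The highest array of each group was miR-127-3p 5 and control 3, the arrays that read lowest for Col24a1 and Col8a2. All 6 tested myofibroblast markers had the same highest arrays, as did 2 of 5 keratinocyte markers (1 was lowest in both), while 4 of 5 adipocyte markers were lowest in both. Other lists were mixed. Of 10 fibroblast markers 4 were lowest and 1 highest in both arrays, and of 10 macrophage and leukocyte markers 3 and 1. Of 4 skeletal muscle markers 2 were lowest and 1 highest in both, and of 3 pericyte and smooth muscle markers 1 and 2. Krt5, a keratin of basal keratinocytes, read 3.66 in miR-127-3p 5 (2.51 to 3.36 in the other mimic arrays) and 3.13 in control 3 (1.76 to 2.26 in the other controls). Cnn1, a contractile protein of myofibroblasts that was singled out after its values were seen, read 7.87 in miR-127-3p 5 (6.33 to 7.45 in the others) and 7.71 in control 3 (5.92 to 6.91 in the others). The share of all features that were highest or lowest in these arrays was not counted, so the counts do not set these lists or the collagens apart from other genes. What sets these arrays apart was not tested.

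**Figure D4:**
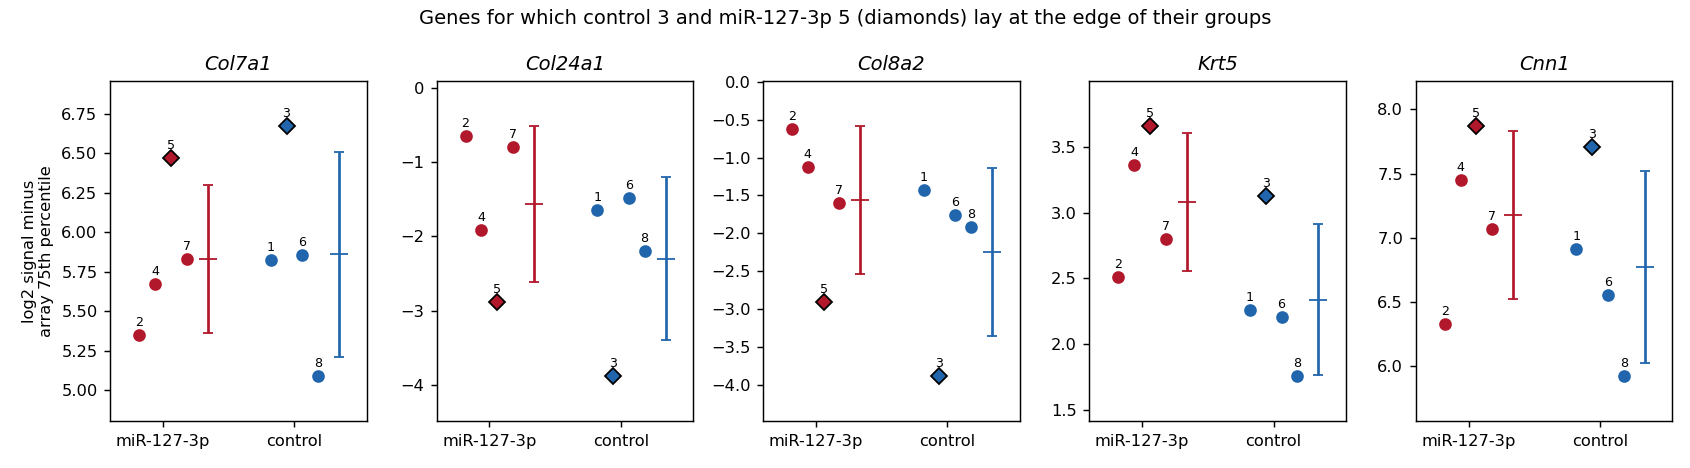
Log2 signal minus the array 75th percentile of Col7a1, Col24a1, Col8a2, Krt5 and Cnn1 by array, with mean and SD (n = 4) beside the points, and miR-127-3p 5 and control 3 drawn as diamonds. Both diamonds are the highest points of their groups for Col7a1, Krt5 and Cnn1 and the lowest for Col24a1 and Col8a2.

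Col18a1, a basement membrane proteoglycan whose tail is cleaved to endostatin, read 3.31, 3.62, 3.41 and 3.87 with the mimic and 3.39, 2.70, 3.20 and 2.81 in controls. The groups overlapped through control 1. Its difference of 0.53 (95% interval 0.11 to 0.94) missed the threshold (adjusted p = 0.0529, limma), and a second probe gave 0.20 (adjusted p = 0.532). It passed in 6 of 21 alternatives, among them without control 1 (0.65, adjusted p = 0.0308) and without miR-127-3p 2 (0.61, adjusted p = 0.0487). Col15a1, the other multiplexin, was above background on 1 array of each group.

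Of the 20 collagen genes below the filter, 11 were above background on no array, 6 on 1 array, 2 on 2 arrays and 1 on 3 arrays. The 11 were Col11a2, Col4a3, Col9a1, Col9a3, Col19a1, Col22a1, Col6a4, Col6a5, Col13a1, Col10a1 and Col28a1. Their level was not detectable with these probes, which does not show that the genes are silent. Besides those given above, Col9a2 was above background on 0 mimic and 2 control arrays, Col20a1 on 1 mimic array and Col26a1 on 1 control array. None of the 24 tested genes passed the filter through arrays of 1 group alone, and 19 of the 24 were above background on all 8 arrays.

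Compared across classes, the medians of the log2 fold change were 0.06 for fibrillar (9 tested), 0.49 for basement membrane (4), 0.34 for FACIT (3), -0.27 for beaded (3) and -0.05 for transmembrane genes (1). By the brightest probes, the tested type IV genes had 4 of 4 values above 0, the FACIT genes 3 of 3 above 0 and the type VI genes 3 of 3 below 0. Of all 17092 features, 8949 were above 0. The signs depended on the probe for Col4a6 and Col14a1. Their second probes gave -0.17 and -0.56, and the mean over probes gave -0.044 and -0.24. With so few genes per class, and no test between classes, these values describe the genes measured. Chains that assemble into the same molecule were compared within arrays in 6 pairs, by an exact permutation test that was added after seeing the data (70 assignments, two-sided, adjusted over the 6 pairs). By this exact test, the log2 difference between Col4a1 and Col4a2 changed by -0.14 with the mimic (p = 0.114, adjusted p = 0.343), that between Col1a1 and Col1a2 by 0.01 (p = 0.857, adjusted p = 0.857) and that between Col6a1 and Col6a2 by 0.04 (p = 0.743, adjusted p = 0.857). Larger values, by the same exact test, were seen for Col5a1 against Col5a2, with 0.66 (p = 0.0857, adjusted p = 0.343), and for Col6a1 and Col6a2 against Col6a3, with 0.25 and 0.21 (adjusted p = 0.400 and 0.600). In all 6 pairs the arrays of the groups overlapped. The smallest p that the 70 assignments allow, 0.0286, would not pass for a single pair after adjustment over 6. For Col5a1 against Col5a2 the overlap came through control 3, and without that array, a setting chosen after seeing the data, the value was 0.86.

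Genes that modify, fold, trim, cross-link, bind or degrade collagen were examined as a list of 49, of which 42 were tested, 10 rose, 2 fell and 30 did not pass. The share called was 12 of 42, beside 34.2% of all features, and the median log2 fold change was 0.10. Of 12 tested hydroxylases and glycosyltransferases, which modify prolines and lysines of the nascent chain, 1 rose: Plod3, a lysyl hydroxylase that also adds glucose, read 5.74, 5.75, 5.63 and 5.64 with the mimic and 5.21, 5.35, 5.24 and 5.27 in controls (0.42, SE 0.07, adjusted p = 0.00298, limma). The groups for Plod3 did not overlap. P4ha1, the main prolyl hydroxylase subunit, differed by 0.10 (adjusted p = 0.467), Plod2 by 0.43 (adjusted p = 0.123) and P3h3 by 0.27 (adjusted p = 0.0511, limma), which passed without miR-127-3p 5 (adjusted p = 0.0317).

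Among 8 tested folding and export genes 1 fell. Serpinh1, which encodes the collagen chaperone HSP47, read 6.30, 6.47, 6.58 and 6.39 with the mimic and 7.17, 6.80, 6.86 and 6.80 in controls, with no overlap (-0.47, SE 0.11, adjusted p = 0.0111, limma). The prolyl isomerase gene Ppib differed by 0.14 (adjusted p = 0.190) and the export receptor gene Mia2 by -0.29 (adjusted p = 0.0829), which passed without control 6 (adjusted p = 0.0245). Of 6 genes of propeptide removal 2 rose. Pcolce, an enhancer of the C-propeptide protease, read 8.34, 8.36, 8.28 and 8.36 with the mimic and 8.05, 7.91, 7.90 and 7.78 in controls (0.42, SE 0.08, adjusted p = 0.00400, limma), again without overlap. Tll1, a protease of the same family as that enzyme, had a difference of 0.74 (SE 0.23, adjusted p = 0.0397, limma) that lost its call in 11 of 21 alternatives, among them without control 1, 6 or 8 or miR-127-3p 2, 5 or 7 (adjusted p between 0.0532 and 0.103). Adamts14 differed by -0.31 (adjusted p = 0.208).

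Of the 5 cross-linking enzymes 2 rose and 1 fell. Lox, the founding lysyl oxidase, read 4.76, 4.91, 5.05 and 4.70 with the mimic and 3.86, 4.26, 3.75 and 3.89 in controls, without overlap. Its log2 fold change of 0.91 (adjusted p = 0.00114, limma) lay between 0.77 and 1.06 over the 21 alternatives, and only within slide row 1 was it not called (adjusted p = 0.0700). Loxl1, better known for elastic fibres, rose by 0.35 (SE 0.07, adjusted p = 0.00695, limma). Loxl2, an oxidase that acts on type IV collagen, read 5.05, 5.53, 6.11 and 5.47 with the mimic and 6.29, 6.74, 6.41 and 5.94 in controls, with miR-127-3p 5 above control 8. Its fall of -0.80 (SE 0.24, adjusted p = 0.0302, limma) lost its call in 10 alternatives. Among them were the fits without control 1, 3 or 6 or miR-127-3p 2, 4 or 7 (adjusted p between 0.0623 and 0.0704). The mean over the tested probes of the gene and slide row 2 alone also lost it, and the value ran from -1.22 to -0.39 over the 21 alternatives.

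Collagen receptors and breakdown enzymes followed. Of 7 tested receptor genes 2 rose: the integrin beta chain gene Itgb1 by 0.60 (SE 0.14, adjusted p = 0.0121, limma), and Itga10, an alpha chain of a collagen-binding integrin, by 0.36 (SE 0.10, adjusted p = 0.0275), a call lost in 9 of 21 alternatives, among them slide column as a block (adjusted p = 0.0587) and without control 6 or 8 or miR-127-3p 2 or 5 (adjusted p between 0.0585 and 0.0697). The values of Itga11, an alpha chain for fibrillar collagen, and of the receptor kinase gene Ddr2 were -0.45 (adjusted p = 0.0594) and -0.25 (adjusted p = 0.0664), and both passed without miR-127-3p 5 (adjusted p = 0.00288 and 0.0464). Of 4 tested collagenases and collagen-degrading proteases 3 rose. Mmp2, the gelatinase that also cuts type IV collagen, read 5.23, 4.90, 4.27 and 4.79 with the mimic and 2.66, 3.08, 2.76 and 2.96 in controls. All mimic arrays lay more than 1 log2 unit above all controls, the log2 fold change was 1.93 (SE 0.20, adjusted p = 0.000189, limma), and it was called in all 21 alternatives.

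Mmp14, the membrane protease that activates the product of Mmp2, rose by 0.48 (SE 0.09, adjusted p = 0.00534, limma). Ctsk, a protease that cuts within the triple helix, read 6.37, 5.89, 5.38 and 5.91 with the mimic and 5.03, 4.81, 4.89 and 5.35 in controls (0.86, SE 0.21, adjusted p = 0.0129, limma), and lost its call within slide row 2 (adjusted p = 0.262). Mmp13, the main interstitial collagenase of mice, read -0.53, -0.26, -2.99 and 1.50 with the mimic and between -4.33 and -1.83 in controls, with 3 mimic and 1 control arrays above background. The difference of 2.37 (SE 0.89) did not pass (adjusted p = 0.0713, limma), and it was 3.18 without miR-127-3p 5 (adjusted p = 0.00943). Macrophages also make such proteases, and 9 of 10 tested macrophage and leukocyte markers rose in the same comparison, where 15.9% of all features did. Ptprc was above background on no array, and the summed levels did not overlap, with or without Itgam, as given above. Their part in the values of these proteases was not tested. Within each slide row alone, the pathway genes Plod3, Serpinh1, Pcolce, Loxl1, Itgb1 and Mmp14 kept their sign and lost their calls (adjusted p between 0.0762 and 0.179), and with slide column as a block Loxl1, Itgb1, Loxl2, Itga10 and Tll1 did (adjusted p = 0.0534, 0.0578, 0.0583, 0.0587 and 0.102), while Itga11 passed (adjusted p = 0.0489). P3h2, Colgalt2, Tmem38b, Adamts3, Tll2, Itga2 and Mmp8 were below the filter.

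**Figure D5:**
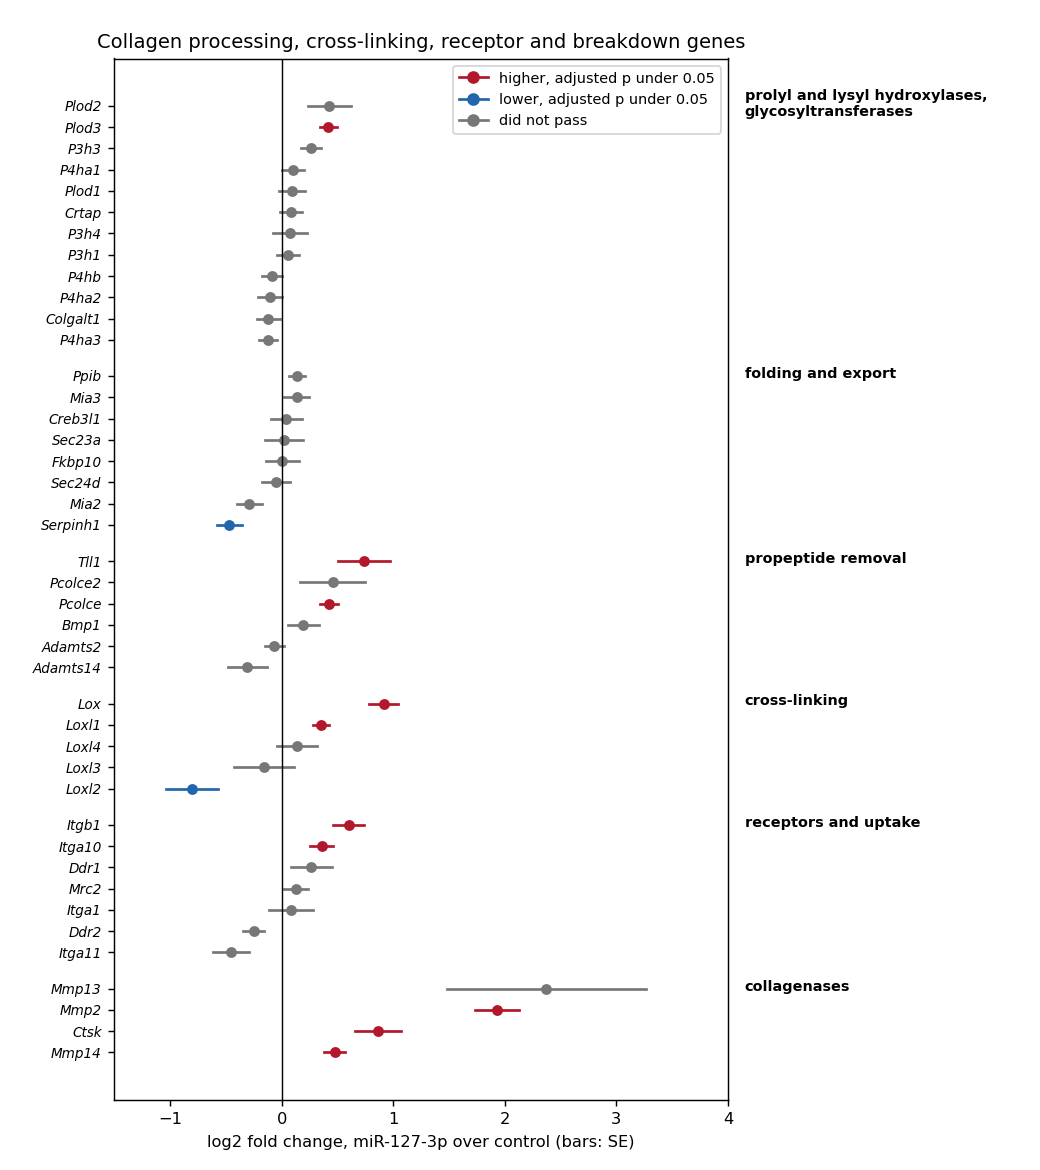
Log2 fold change, miR-127-3p over control, of the 42 tested genes of collagen modification, folding, trimming, cross-linking, binding and breakdown, by role, with bars for the SE (n = 4 each). Red points rose and blue points fell at an adjusted p under 0.05 (limma); of the 12 coloured genes 10 are red, the farthest right of them Mmp2.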

How the data were processed

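Messenger RNA of 4 miR-127-3p and 4 control transfections was measured on 1-colour Agilent 60-mer arrays, 1 array per sample. The authors' scanner tables hold intensity values from Feature Extraction 11.5.1.1, corrected for background and spatial trend within each array and, per the file headers, without normalization across arrays. The deposited table of values is in log2 and differs from the log2 of the processed intensity by a single offset for each array (SD of the offset at most 2.78e-07), with column 75th percentiles between -0.000485 and -8.06e-05, medians between -3.78 and -3.60 and no centring of genes. Per the series' design text, GeneSpring was used; its settings are not given in the sources used here.

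Control spots (3671 of 62976) and outlier spots were left out, spots of a probe were averaged, and the array's 75th percentile of log2 signal was subtracted. Accessions without versions gave a symbol in a RefSeq table (GRCm38.p6, used for names and neighbours; the files' design uses another build, so gene coordinates from the files are not given, and the printed sequences carry the RefSeq coordinates) for 28331 of 55681 probes; 27350 kept the file's name and cannot be found by symbol, and some of them may be collagen transcripts. All 44 collagen genes of that table were on the array, with 64 probes. A probe was tested when well above background on at least 4 arrays (21971 probes, 8 of them dropped for an outlier spot), and a gene was represented by its brightest probe, which gave 17092 features, 12030 with a symbol. The mimic was set against control with limma 3.58.1 (R 4.3.3; lmFit, then eBayes; two-sided tests; Benjamini-Hochberg over all features; threshold 0.05), a step tested on simulated data. The number of arrays limits the precision.

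The genes, classes, collagen pathway list and marker lists were chosen with earlier results of these data known. Every collagen gene is named; of the pathway list, up to 3 members per role with the smallest adjusted p plus Lox, Serpinh1, P4ha1, Ddr2 and Mmp13. Marker lists are given as counts and summed levels: beside those in the text, 0 of 6 myofibroblast, 0 of 1 cartilage, 0 of 1 bone, 0 of 3 pericyte and smooth muscle, 2 of 7 Schwann cell and melanocyte (both higher), 0 of 4 skeletal muscle and 0 of 5 adipocyte markers tested were called. The 21 alternatives were normexp background correction (offset 50, on the median signals), quantile normalization, the deposited table, other filters, the mean over probes, outlier spots kept, slide row or column as a block, each slide row alone, another variance model, each array left out, and miR-127-3p 5 and control 3 left out together (chosen after seeing the data).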

Additional observations from a re-analysis of the deposited data

Results flagged for a closer look

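In 120 groups of 4 arrays (the 24 tested collagens and 36 other named genes, each in 2 groups), 6 groups had an array separated from the other 3 by more than 0.829 of the group's range, Dixon's limit. Chance gives about 1 in 20, so the number of flagged groups is about what chance gives, and none is shown to be an outlier. In the beaded filament genes the array was control 3, which read 6.96 for Col6a1 (next lowest control 7.49) and 4.65 for Col6a2 (next lowest control 5.24). For the integrin gene Itgb1, miR-127-3p 7 was the lowest mimic array, at 5.91 (next 6.19), and control 3 the highest control, at 5.93 (next 5.44). For the membrane protease gene Mmp14, miR-127-3p 7 was low at 3.05 (next 3.23), and for the chaperone gene Serpinh1, control 1 was high at 7.17 (next 6.86).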

How the results depend on the processing

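Of the 6 collagens called, 0 kept the call in all 21 alternatives, and of the 18 not called 6 passed in at least 1 (Col5a2, Col16a1, Col18a1, Col27a1, Col6a1 and Col6a2); the cause was not tested. Against 4 higher and 2 lower collagens, there were 3 and 1 with no filter on dim probes, which tests more features, 0 and 0 within slide row 1, 3 and 1 within row 2, and 4 and 5 without control 3 and miR-127-3p 5. Leaving out 1 array gave 3 to 5 higher and 0 to 5 lower: 0 lower without control 1 or miR-127-3p 4 or 7, 1 without control 6 or 8 or miR-127-3p 2 or 5, and 5 without control 3. Over all features, 2718 were higher and 3134 lower, against 1644 and 2013 with no filter, 1781 and 2229 with slide column as a block, 768 and 991 within row 1, 685 and 926 within row 2, and 1864 to 2899 and 2456 to 3073 with 1 array left out. They were 2899 and 2890 without control 3, and 2895 and 2933 without control 3 and miR-127-3p 5. Of the pathway genes 10 rose and 2 fell, against 8 and 0 with no filter, 11 and 1 with the mean over probes, 6 and 2 with slide column as a block, 3 and 2 within row 1, 2 and 0 within row 2, 11 and 4 with a trended robust variance, 10 and 4 without control 3 and miR-127-3p 5, and 8 to 11 and 1 to 4 with 1 array left out (1 lower without control 1 or 3 or miR-127-3p 2, 4 or 7, and 4 without miR-127-3p 5). Cell type markers numbered 14 higher and 1 lower, 9 and 1 with no filter or with slide column as a block, 3 and 1 within row 2, 17 and 3 without control 3 and miR-127-3p 5, and 9 to 16 and 1 to 3 with 1 array left out (9 higher without miR-127-3p 4, 3 lower without control 3 and 2 lower without miR-127-3p 5).

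Signs turned in values that had not passed. Col4a6 was -0.021 with normexp, -0.044 with the mean over probes, -0.06 without miR-127-3p 5 (up to 0.19 with another array left out) and -0.12 without that array and control 3. Col23a1 was 0.044 with normexp, 1.01 within row 1, 0.29 without miR-127-3p 5, 0.07 without control 6 and 0.16 without control 8 (down to -0.47 with another array left out). Col7a1 was 0.68 within row 2, 0.13 without miR-127-3p 2, 0.24 without control 3, 0.024 without miR-127-3p 4 (down to -0.29 with another array left out) and 0.030 without control 3 and miR-127-3p 5. Within row 1 Col1a1 was -0.15, Col1a2 -0.021 and Cnn1 -0.42, and within row 2 Col24a1 was -0.0033, Col8a1 0.27 and Col8a2 -0.42. With the mean over probes Col14a1 was -0.24 and P4ha1 -0.020, and Col14a1 was -0.00051 without control 3 and miR-127-3p 5 and up to 0.20 with 1 array left out. The cause was not tested. Pairing by replicate was not possible because the groups share no replicate number. Each slide column held 1 array of each group, so slide column as a block pairs the arrays by position only; of the 6 collagens called, Col4a1 lost its call there (adjusted p = 0.0528, limma). Col24a1, Col27a1, Col8a2 and Col23a1 were each well above background on at most 6 arrays, which limits their values.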

Other observations

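A pair of fibroblast markers outside the collagen family differed and were singled out after their values were seen. Dcn, which encodes decorin, a small proteoglycan that binds collagen fibrils, read 7.27, 6.84, 6.18 and 7.17 with the mimic (samples 2, 4, 5 and 7) and 5.68, 4.76, 5.96 and 6.33 in controls (samples 1, 3, 6 and 8). The groups overlapped through miR-127-3p 5 and control 8, and the log2 fold change was 1.18 (adjusted p = 0.0324, limma), a call lost when slide column was the block (adjusted p = 0.0572) and without control 1 or miR-127-3p 2, 4 or 7 (adjusted p between 0.0702 and 0.0823). Pdgfra, the receptor for platelet-derived growth factor that marks dermal fibroblasts, read 1.95, 1.68, 1.67 and 1.83 with the mimic and 3.06, 2.09, 3.10 and 2.77 in controls, without overlap. Its log2 fold change was -0.97 (adjusted p = 0.00865, limma), and control 3 was again its lowest control, as for Col3a1.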
